A study of Mus musculus with 10 samples.

Results

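The 5 control samples of this experiment, out of 10 samples in all, were examined on their own to describe the transcriptome of sorted Olig2-lineage cells of the mouse spinal cord at e10.5. The members were chosen by their label alone, and no comparison between genotypes was made. Control embryos carried Olig2-Cre+/- and Rosa26R-YFP+/-, together with 1 floxed and 1 wild-type copy of both Oc1 and Oc2, the Onecut factor genes whose symbols in the annotation are Onecut1 and Onecut2. Each control cell that expressed Cre can therefore have lost 1 allele of both genes, and no sample here was free of Cre or of floxed alleles. The other 5 samples, named cdKO, carried Cre and YFP with each of these genes floxed on 1 allele and null on the other, and they served here only for the spread within their own group. Spinal cords were dissociated and YFP-positive cells were collected by FACS, so that a cell entered a sample if it or its ancestors had expressed Cre from Olig2. By the study's own staining this lineage also holds V3 interneurons (INs) beside motor neurons (MNs), although the labels name the samples motor neurons. The sample titles give e10.5 for all samples, whereas the descriptions give a stage number that changes from sample to sample. Replicates are numbered as in the titles, and the number attached to each deposited column is 1 higher. Nothing in the labels says that the replicates came from separate embryos or litters, so the spread given below is that between 5 sequenced samples.

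Olig2 encodes a basic helix-loop-helix (bHLH) factor of the progenitors of MNs in the ventral neural tube. These progenitors switch on Neurog2 and, on leaving the cell cycle, the homeodomain factors Mnx1, Isl1, Isl2 and Lhx3. Genes of acetylcholine synthesis and transport follow later. Notch signalling, with its Hes target genes, keeps neighbouring progenitors dividing. Hox genes, expressed in nested domains along the body axis, divide MNs into columns by level of the cord. A sorted sample of this lineage is thus a mixture of dividing progenitors, newborn neurons and differentiating neurons.

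The deposited values are raw counts on parts of exons, summed here to 48850 genes. Control totals ranged from 63932395 to 107709534 counts, and 3 counts, taken as the limit of what a count of 0 allows, corresponded to between 0.0279 and 0.0469 counts scaled to a common library size (CPM). These limits cover counting error only. CPM compares the samples for a given gene, after scaling by the TMM method of edgeR. To compare genes with each other, CPM was divided by the length over which a gene can collect counts, and this is called the level, in CPM per kilobase. A gene with a mean of at least 1 CPM over the 5 samples was called detected. The 10 genes with the most counts took between 4.88% and 7.0% of a sample, and haemoglobin genes took at most 0.00198%. Replicate 5 stood apart from the rest: its correlation with the other 4 samples was between 0.862 and 0.933 (Pearson's r across 13506 genes on the log2 CPM scale), against 0.936 to 0.979 among those 4. It also had the fewest exon parts with a count, 243970 against 262301 to 271591, and a number of counts and orders are therefore given without it as well.

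The promoters of Olig2, Isl1 and Mnx1, 3 markers of the lineage, and of Tuba1a, the protein-coding gene with the highest level, are shown. Each window runs from 250 bases before to 50 bases after the RefSeq start of the gene (GRCm38.p6), 5′ to 3′ on the strand of the gene. They are shown because the first 3 genes are markers used below and Tuba1a gave the message with the highest level. Capitals mark matches, on either strand, to TATAAA (the core of a TATA box), CCAAT and GGGCGG (the core of a GC box). No match is shared between these motifs.
Olig2, chr16:91225300-91225599, plus strand: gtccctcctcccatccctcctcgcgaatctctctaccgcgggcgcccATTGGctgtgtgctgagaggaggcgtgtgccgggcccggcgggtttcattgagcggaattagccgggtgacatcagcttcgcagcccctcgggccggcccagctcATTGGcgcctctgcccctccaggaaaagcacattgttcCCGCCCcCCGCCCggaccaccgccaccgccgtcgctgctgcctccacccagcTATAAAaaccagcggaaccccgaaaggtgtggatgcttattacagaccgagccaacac
Isl1, chr13:116309639-116309938, minus strand: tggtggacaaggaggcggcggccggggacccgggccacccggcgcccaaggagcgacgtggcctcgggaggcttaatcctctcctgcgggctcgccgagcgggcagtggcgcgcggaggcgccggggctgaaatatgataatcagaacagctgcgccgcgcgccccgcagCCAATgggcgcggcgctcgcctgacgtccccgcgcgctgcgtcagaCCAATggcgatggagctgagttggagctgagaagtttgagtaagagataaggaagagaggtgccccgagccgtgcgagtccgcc
Mnx1, chr5:29478421-29478720, minus strand: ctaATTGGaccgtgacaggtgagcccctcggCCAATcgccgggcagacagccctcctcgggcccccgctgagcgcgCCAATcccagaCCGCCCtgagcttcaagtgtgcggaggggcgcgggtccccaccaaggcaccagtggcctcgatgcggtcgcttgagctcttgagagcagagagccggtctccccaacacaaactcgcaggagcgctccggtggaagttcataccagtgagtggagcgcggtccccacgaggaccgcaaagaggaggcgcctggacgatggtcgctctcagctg
Tuba1a, chr15:98953452-98953751, minus strand: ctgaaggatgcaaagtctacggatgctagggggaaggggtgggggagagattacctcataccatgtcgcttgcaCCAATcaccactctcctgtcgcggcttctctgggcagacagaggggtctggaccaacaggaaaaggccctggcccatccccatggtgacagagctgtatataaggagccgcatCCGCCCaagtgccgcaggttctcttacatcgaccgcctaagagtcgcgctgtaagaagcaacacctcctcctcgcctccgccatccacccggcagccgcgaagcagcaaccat
CCAAT was found in all 4 windows, with 2 matches for Olig2, 2 for Isl1, 3 for Mnx1 and 1 for Tuba1a. GGGCGG was found 2 times in the Olig2 window and 1 time in those of Mnx1 and Tuba1a, and TATAAA only in that of Olig2. Among 27025 mouse promoters of the same length, 37.9% held CCAAT, 35.9% held GGGCGG and 14.2% held TATAAA. For the 200 protein-coding genes with the highest level, the shares were 54.1%, 68.2% and 10.8% of 157 promoters. For the 200 lowest detected ones they were 29.8%, 65.2% and 8.07% of 161 promoters. A match is a match of letters and not a measured binding site.

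The label of the samples was then examined with 4 markers of the lineage, all of which were detected and had counts in every control sample. Olig2 (chromosome 16, 91225457 to 91228677, GRCm38) was counted at 40.1, 63.7, 93.8, 72.5 and 74.6 CPM in replicates 1 to 5. Isl1, a LIM-homeodomain factor of postmitotic MNs (chromosome 13, 116298281 to 116309689), reached 270, 144, 222, 193 and 336 CPM. Mnx1, the homeodomain factor also known as HB9 (chromosome 5, 29473034 to 29478470), stood at 55.3, 77.3, 71.8, 60.0 and 29.0 CPM. Progenitor and neuron markers were thus present side by side in all 5 samples. Isl1 was highest and Mnx1 lowest in replicate 5, whereas Olig2 was lowest in replicate 1. Chat, the enzyme of acetylcholine synthesis (chromosome 14, 32408203 to 32465989), was low, at 10.3, 9.52, 7.28, 11.6 and 2.46 CPM. On the scale of level, Isl1 reached 38.5 ± 12.2 CPM per kilobase (mean ± SD, n = 5, as throughout for levels), Olig2 25.2 ± 7.13, Mnx1 18.6 ± 5.97 and Chat 1.58 ± 0.689. The ranges of Isl1, Olig2 and Mnx1 overlapped, and that of Chat lay below all of them.

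**Figure D1:**
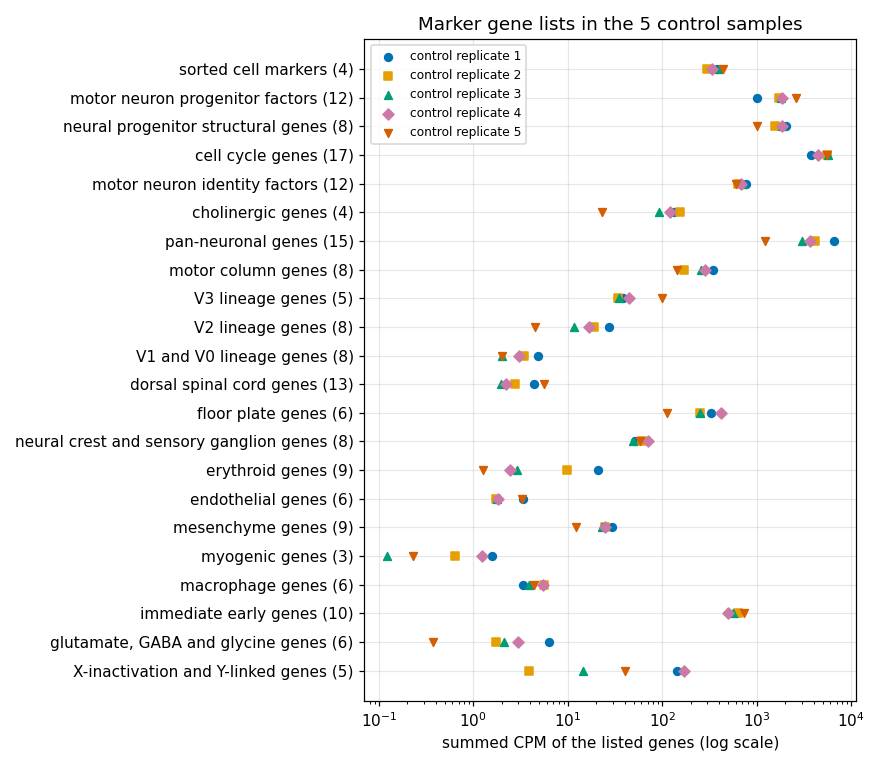
Summed CPM (log axis) of each of 22 lists of marker genes in the 5 control samples, 1 symbol per replicate, with the number of genes of a list in brackets. Pan-neuronal genes summed to between 1214 and 6489 CPM and cell cycle genes to between 3741 and 5722 CPM, whereas dorsal, V1 and V0, endothelial, myogenic and macrophage lists stayed under 6 CPM.

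Among genes of cells that the dissection could have carried along, the endothelial, myogenic and macrophage lists were mostly near the detection limit. The erythroid, mesenchyme and neural crest lists were in part detected. None of 6 endothelial genes and none of 3 myogenic genes was detected, with sums of 1.75 to 3.35 CPM and of 0.121 to 1.57 CPM. Of 6 macrophage genes only Csf1r was detected, and 99.9% of its counts lay on bases shared with another gene, whereas C1qb had 0 counts in all 5 samples, which allows up to 0.0469 CPM in the shallowest. Erythroid genes summed to between 1.26 CPM in replicate 5 and 20.7 CPM in replicate 1, with 4 of 9 detected. Among 9 mesenchyme genes, 5 were detected and their list summed to between 12.2 and 29.1 CPM. For neural crest and sensory ganglia, Sox10, the defining factor of crest, stayed between 0.0577 and 0.129 CPM, and 3 of 8 genes were detected, among them Six4 at 1.13 to 3.61 CPM. The summed CPM of this list was 49.4 to 70.3.

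Other domains of the cord were represented unequally. Of 13 dorsal genes only Msx1 was detected, at 0.721 to 1.75 CPM, and Pax7, which marks dorsal progenitors, had 0 counts throughout. Of 8 genes of the V1 and V0 lineages only Dbx2 was detected, at 1.19 to 2.00 CPM, and En1 stayed at or below 0.0967 CPM. All 5 V3 lineage genes and all 6 floor plate genes were detected, as were 5 of 8 V2 lineage genes. Nkx2-9, a homeodomain gene of the ventralmost progenitors, was counted at 8.44, 13.5, 15.5, 12.6 and 81.9 CPM. Foxa2, a forkhead factor of the floor plate, was similarly distributed, at 12.1, 8.74, 10.2, 11.2 and 45.0 CPM. Replicate 5 lay far above the other 4 samples for both genes. Sim1, a factor of postmitotic V3 INs, was instead lowest there, with 5.17, 1.37, 2.51, 5.03 and 0.143 CPM, and Spon1, a secreted floor plate protein, was at 43.3 CPM in replicate 5 against 217 to 366 CPM. In bulk RNA, fewer cells of a type and less RNA per cell cannot be told apart, and this holds for all such differences below.

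In all, 13506 genes were detected. Of these 11873 were protein-coding and took 97.7% of all CPM, 1044 were long non-coding RNA (lncRNA) genes with 1.64%, and 589 were other genes such as pseudogenes. The median level was 3.61 CPM per kilobase for protein-coding and 1.61 for lncRNA genes. For 666 of the 1044 lncRNA genes more than 90% of the counts lay on bases that also belong to another gene. The counts did not use strand, so that for these genes the source of the reads cannot be told apart.

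The message with the highest level was Tuba1a (chromosome 15, 98949837 to 98953703), the alpha-tubulin of growing axons. Its CPM was 14274, 17363, 8690, 8345 and 3603 in replicates 1 to 5, a range of 4.82-fold, and its level was 3171 ± 1639 CPM per kilobase. Replicate 5 was the lowest of the 5, as for the neuron genes described below. Next came Ftl1, the ferritin light chain, at a level of 1936 ± 490, with 34.9% of its counts on shared bases, and Ckb, brain creatine kinase, at 1530 ± 507. Ubb (ubiquitin) had a level of 971 ± 352 and H2afz, a histone H2A variant, 836 ± 339. In contrast to Tuba1a, H2afz had its highest value, 6921 CPM, in replicate 5, against 2355 to 5298 CPM elsewhere.

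The 20 protein-coding genes with the highest level together held a mean of 6.44% of the counts, and the first exceeded the last of them by 7.68-fold. Glycolysis was represented by Pkm, pyruvate kinase, at a level of 657 ± 239, and Ldha, lactate dehydrogenase, at 475 ± 159. The cytoskeleton contributed Tmsb4x (597 ± 164), Stmn1 (441 ± 128) and Actg1 (415 ± 135) beside Tuba1a. Among translation factors Eif5a stood at 487 ± 155 and Eef1a1 at 432 ± 76.0. Hes5, a bHLH repressor induced by Notch, and Crabp2, a carrier protein of retinoic acid, were the developmental genes of this group, at levels of 525 ± 202 and 437 ± 117. Of the counts of Hes5, 85.8% lay on bases shared with another gene. The remaining members were Calm2, Mif, H3f3b, Ppp1ca, Ppia and Hnrnpa1, at levels between 413 and 656. None of the 80 detected ribosomal protein genes was among them, although 10 were among the first 100.

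Among lncRNA genes the order depended on how shared bases were treated. By the level over all bases the first 10 were Gm10252, Gm37376, Gm20421, Malat1, Gm38287, Cct6a, Gm17275, Gm45552, Gm44732 and Gm20463. All of them except Cct6a had at least 88.6% of their counts on bases that another gene also covers. Cct6a, whose symbol is that of a chaperonin subunit although its annotated class placed it here, had 5.09% shared and a level of 147 ± 29.0. On unshared bases alone, only Cct6a and Malat1 stayed among the first 10, with Gm10076 at a level of 71.1 ± 25.8, Pantr1 at 59.3 ± 13.9, Hoxb5os at 49.3 ± 10.9 and Gas5 at 49.1 ± 35.8. Without replicate 5 Gas5 stood at 32.8 ± 2.59 and Malat1, at 13.9 ± 11.3, was no longer among the first 10 of these.

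Several lncRNA genes varied widely between the replicates. Malat1, a nuclear-retained RNA, was counted at 84.3, 19.1, 103, 232 and 458 CPM on its unshared bases. Its lowest and highest values thus came from replicates 2 and 5. Gas5, a host of small nucleolar RNAs, reached 1401 CPM in replicate 5 against 379 to 445 CPM in the other 4 samples, on the same bases. Snhg5, Snhg15 and Snhg1, which host small nucleolar RNAs as well, reached 304, 139 and 329 CPM in replicate 5 and at most 138, 23.3 and 118 CPM elsewhere. Pantr1, a neighbour of the neural factor gene Pou3f3, varied little, between 323 and 597 CPM.

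Of 746 genes in the families of transcription factors examined, 409 were detected. A standard deviation (SD) of log2 CPM of at least 1 was found for 44 of these 409. Over all detected genes it was found for 1089 of 13506 (8.06%). Basic helix-loop-helix factors, among which the Id inhibitors of this family were counted, provided 11 of the 25 genes with the highest level, homeodomain factors 4 and Sox factors and their relatives 3. No gene of the forkhead class and none of the class of zinc finger and GATA genes was among the 25, although 17 and 91 were detected. These classes were assigned by gene symbol, and the nuclear receptor gene Nr2f6, which is among the 25, was counted with other factors. The median level of detected factors was 4.47 CPM per kilobase for bHLH, 2.24 for homeodomain and 1.42 for Sox and other HMG box genes. It was 1.12 for the zinc finger and GATA class and 0.815 for forkhead genes.

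**Figure D2:**
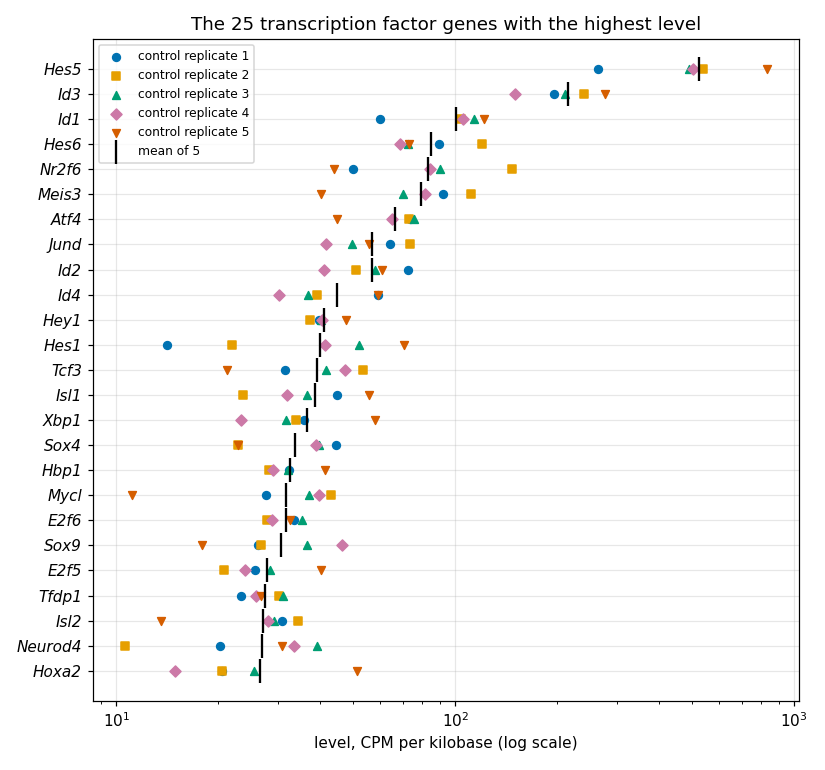
Levels (CPM per kilobase, log axis) of the 25 transcription factor genes with the highest mean level, 1 symbol per control replicate and a black tick for the mean. Hes5 stands apart at 525, and Hey1 and E2f6 show the narrowest spread of the plot.

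Notch effectors and Id genes led this order. After Hes5 came Id3 at a level of 215 ± 47.9, Id1 at 101 ± 23.9 and Hes6, a bHLH factor of differentiating progenitors, at 84.6 ± 21.2. Id2 and Id4 followed at 56.7 ± 11.7 and 44.8 ± 13.4, and Hey1 and Hes1, further Notch targets, at 41 ± 3.94 and 40.0 ± 22.8. Hes1 was counted at 54.1, 84.4, 200, 158 and 271 CPM and was therefore lowest in replicate 1 and highest in replicate 5, while Hey1 kept between 194 and 249 CPM. Tcf3, the E protein that pairs with Olig2, Neurog2 and other bHLH factors, reached 39.0 ± 12.8, and Neurod4, a proneural factor, 26.8 ± 11.4.

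Isl1 and Isl2, at levels of 38.5 ± 12.2 and 27.1 ± 7.97, were the MN identity factors among the 25, with Meis3 (79.0 ± 26.4), a cofactor of Hox proteins, and Hoxa2 (26.5 ± 14.4) as the other homeodomain genes. Sox4 and Sox9 reached 33.7 ± 10.1 and 30.7 ± 11.0, all counts of Sox4 being on bases shared with another gene. Hbp1, which carries an HMG box, completed the Sox group at 32.5 ± 5.2. General and cell cycle factors filled most of the other places, among them Nr2f6 (83.0 ± 41.1), Atf4 (66.3 ± 12.7), Xbp1 (36.6 ± 12.9), Mycl (31.7 ± 12.8), E2f6 (31.6 ± 3.13), E2f5 (27.8 ± 7.48) and Tfdp1 (27.4 ± 3.20). Jund stood at 56.8 ± 12.4, with all of its counts on shared bases. The SDs of neighbours in this order overlapped from Id1 downwards. Without replicate 5, 23 of the 25 stayed. Olig2 ranked 27th of the detected factors, Lhx3 31st, Sox2 34th, Neurog2 35th, Mnx1 38th, Nkx6-1 66th, Pax6 156th and Onecut1 232nd.

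All 12 factors listed for MN progenitors were detected, at a median level of 15.7 CPM per kilobase against 3.61 over detected protein-coding genes. Sox2, which maintains neural progenitors, was counted at 41.1, 39.7, 53.4, 42.7 and 54.8 CPM, and Pax6 at 48.2, 45.3, 63.1, 64.5 and 82.9 CPM. Neurog2 reached 24.1, 42.8, 74.6, 69.8 and 52.3 CPM. Replicate 1 or 2 was lowest for these genes, and replicate 5 was within or above the range of the others. Sox9 and Olig1, in contrast, were lowest in replicate 5, at 81.8 against 120 to 213 CPM and at 4.91 against 5.80 to 12.9 CPM, as 2 of the 12 factors. Nkx6-1 ranged from 25.9 to 43.3 CPM, whereas its relative Nkx6-2, at 39.6, 36.6, 9.34, 17.1 and 43.9 CPM, was lower in replicates 3 and 4. By the study's account, the progenitors that express Nkx6-2 are those of V1 INs only, and some postmitotic MNs and V2a INs express it later. Nkx6-2 is therefore not a marker of MN progenitors alone, although it counts in the list and in the progenitor mean given below. None of the 12 factors had an SD of log2 CPM of at least 1, which was reached by 8.06% of all detected genes.

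Dividing cells were well represented. All 17 cell cycle genes were detected, with a median level of 32.8. Of the 17, 1 gene, Mki67, had an SD of log2 CPM of at least 1, against 8.06% of all detected genes. Mki67, the proliferation marker Ki67, was counted at 18.3, 3.38, 31.4, 35.1 and 73.4 CPM, replicate 2 being far below and replicate 5 above the others. Pcna and Ccnb1, of DNA replication and mitosis, were highest in replicate 5 too, at 723 against 241 to 373 CPM and at 882 against 364 to 631 CPM. Mcm2, a subunit of the replicative helicase, took another order, with 811 CPM in replicate 2 and 302 CPM in replicate 5. The summed CPM of the list, 3741 to 5722, did not set replicate 5 apart. Among 8 structural genes of neural progenitors, Vim had the second highest level (74.4 ± 13.9) after Fabp7 (101 ± 83.7), a fatty acid carrier of radial glia, which was counted at 531 CPM in replicate 1 and at 70.3 to 173 CPM in the others. Replicate 5 was lowest for 7 of these 8 genes, which summed to 1014 CPM there against 1540 to 2035 CPM.

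The neuron genes spread widely, and replicate 5 held the lowest value for most. Tubb3, the neuronal beta-tubulin, was counted at 1028, 1114, 480, 610 and 135 CPM, Stmn2, a tubulin-binding protein of growth cones, at 946, 593, 401, 456 and 107 CPM, and Nefl, the light neurofilament, at 1670, 950, 472, 624 and 84.7 CPM. Replicates 1 and 2 were highest and replicate 5 lowest for all 3 genes. Of the 15 pan-neuronal genes, all detected, 7 had an SD of log2 CPM of at least 1 against 8.06% of all detected genes. These were Tubb3, Stmn2, Nefl, Nefm, Ina, Map2 and Mapt. Without replicate 5 none of the 15 reached this SD, which 3.34% of all detected genes then did. Nefl, Nefm and Ina had 32.7%, 54.3% and 27.9% of their counts on bases shared with another gene. Nefl and Nefm overlap on chromosome 14, so they may carry some of the same reads.

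Of the 15 genes 12 were lowest in replicate 5, and the other 3 took another order. Nhlh1, a bHLH factor of newborn neurons, stood at 1.83, 2.89, 4.24, 4.59 and 2.92 CPM, with replicate 1 lowest. Elavl3, an RNA-binding protein, was highest in replicate 5, at 41.9 CPM, and lowest in replicate 2, at 7.49 CPM. Elavl4 was counted at 604, 184, 584, 575 and 470 CPM, so that replicate 2 lay below all the others. These 3 genes thus did not follow the cytoskeletal genes of the same list, in contrast to Rbfox3, another RNA-binding protein, which was lowest in replicate 5 at 7.93 CPM.

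**Figure D3:**
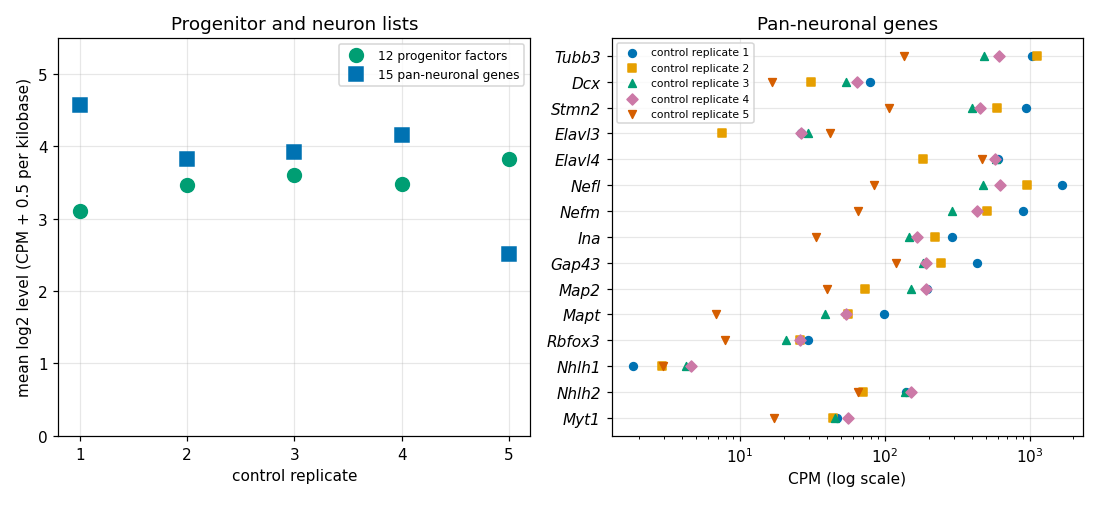
Left, mean log2 level of 12 progenitor factors and of 15 pan-neuronal genes in each control replicate. Right, CPM (log axis) of the 15 pan-neuronal genes, 1 symbol per replicate. The neuron mean is 4.57 in replicate 1 and 2.51 in replicate 5, and only in replicate 5 does it lie below the progenitor mean.

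Set against each other on the log2 scale of level, the mean of the progenitor factors minus the mean of the pan-neuronal genes was -1.46, -0.36, -0.31, -0.67 and 1.31 in replicates 1 to 5. Neuron genes had the higher mean level in 4 samples and progenitor factors in replicate 5. The average difference was -0.30 ± 1.01 (SD, n = 5), smaller than its spread, and it was -0.70 without replicate 5 and -0.01 without replicate 1. The neuron mean varied more, with an SD of 0.77 between samples, than the progenitor mean, with 0.26. When only the longest exon part of each gene was used the average turned to 0.33.

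For differentiated MNs, the identity factors had a median level of 4.45 CPM per kilobase and the cholinergic genes one of 0.944. Gene by gene the lists overlapped, as the cholinergic gene Slc18a3, at 35.9 ± 17.5, exceeded every identity factor except Isl1. Of 12 identity factors 11 were detected, Onecut3 being the exception at 0.352 to 0.730 CPM. Isl2 was counted at 127, 142, 121, 116 and 56.1 CPM and Lhx3 at 106, 141, 118, 94.7 and 51.0 CPM. Like Mnx1 they were lowest in replicate 5, in contrast to Isl1. Onecut1, of which controls carried a floxed allele, was counted at 5.79, 2.40, 7.26, 10.6 and 4.67 CPM and Onecut2 at 4.11, 1.05, 3.10, 7.33 and 9.11 CPM. Both were low, with replicate 2 lowest. Lhx1, a factor of lateral limb-innervating MNs and of several IN classes, had 8.33 to 12.02 CPM in replicates 1 to 4 and 0.601 CPM in replicate 5.

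Among the genes of acetylcholine handling, Slc18a3, the vesicular transporter, was by far the highest, at 114, 139, 82.1, 105 and 20.3 CPM. Slc5a7, the choline transporter, was counted at 5.40, 0.572, 1.17, 2.71 and 0.0143 CPM, the last of these being 1 count. Ache, acetylcholinesterase, ranged from 0.129 CPM in replicate 5 to 4.24 CPM in replicate 1. All 4 genes of the list were lowest in replicate 5. An SD of at least 1 was found for 3 of them, against 8.06% of detected genes, and for 1 of them without that sample.

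Genes of transmitter systems other than acetylcholine were near the limit. Slc17a6, the vesicular glutamate transporter of spinal neurons, was counted at 3.14, 0.602, 0.765, 1.54 and 0 CPM and was the only detected gene of 6. Gad1 and Gad2, of GABA synthesis, stayed at or below 1.34 CPM, and Slc6a5, the glycine transporter, at or below 0.107 CPM. Replicate 1 was highest for Slc17a6, Gad1 and Gad2.

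Of 8 genes that mark motor columns, 6 were detected. Aldh1a2, the enzyme of retinoic acid synthesis in limb-level MNs, showed the largest SD of any autosomal gene, 2.83 on the log2 scale. It was counted at 90.4, 42.7, 31.4 and 38.0 CPM in replicates 1 to 4 and at 0.143 CPM, or 10 counts, in replicate 5. Without that sample its SD was 0.66, which ranked 1698th of 13469 genes. Foxp1, the factor of limb-innervating MNs, was less uneven, at 155, 57.9, 99.2, 101 and 44.9 CPM. Etv1 stayed between 7.76 and 12.8 CPM. Nos1, of preganglionic MNs, and Etv4, of motor pools, did not reach a mean of 1 CPM.

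In pairs of related genes, chosen as those that act together or replace each other in this lineage, the levels within each sample were set against each other with an exact two-sided sign-flip permutation test, for which 0.0625 is the smallest p that 5 samples allow. No pair could therefore pass 0.05. Olig2 exceeded Olig1 by 2.61 ± 0.55 on the log2 scale (6.09-fold), in 5 of 5 samples, although all counts of Olig1 lay on bases shared with another gene. Lhx3 exceeded Lhx4 by 1.87 ± 0.32, and Onecut1 exceeded Onecut2 by 1.92 ± 0.78, again in 5 of 5 samples. Ccnd1 was below Ccnd2, the other D-type cyclin, by 3.03 ± 1.08 in all 5, and Chat was below Slc18a3, which lies inside its first intron, by 4.33 ± 0.37 in all 5. For each of these 5 pairs the exact p was 0.0625 and 0.0833 after Benjamini-Hochberg adjustment over 8 pairs.

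A further 2 pairs differed by less than their spread. Isl1 minus Isl2 was 0.53, -0.53, 0.33, 0.19 and 2.02 in replicates 1 to 5, a mean of 0.51 ± 0.94 (exact permutation p = 0.375, 0.429 adjusted). Without replicate 5 that mean was 0.13. The levels of Nkx6-1 and Nkx6-2 differed by a mean of 0.03 ± 1.02 (exact permutation p = 1), with Nkx6-1 higher in replicates 3 and 4 and Nkx6-2 higher in replicates 1, 2 and 5. Without replicate 3 the mean was -0.34, without replicate 4 it was -0.14, and without replicates 1, 2 or 5 in turn it was between 0.13 and 0.27.

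Hox genes of all paralogue groups from 1 to 9 were present in every control sample. Group 2, with Hoxa2 and Hoxb2, had a summed CPM of 118 ± 57.4, group 9 of 110 ± 38.0 and group 7 of 80.6 ± 11.3. By summed CPM, group 9, with 4 genes, was above group 2, with 2 genes, in replicates 1 to 4. Without replicate 5 their means were 121 ± 31.1 and 92.3 ± 10.2. These sums take no account of the number or length of the genes. By level, Hoxa2 and Hoxb2 reached 26.5 ± 14.4 and 14.0 ± 6.11 CPM per kilobase, against 2.18 to 8.70 for the 4 genes of group 9. Hoxc8, of thoracic and brachial levels, was counted at 72.2, 28.3, 61.4, 56.9 and 25.4 CPM. Hoxa2 and Hoxb2, whose domains reach into the hindbrain, were highest in replicate 5, with 114 against 33.2 to 56.5 CPM and 105 against 45.3 to 49.3 CPM. Of the counts of Hoxb2, 90.9% lay on bases shared with another gene, and those of Hoxa2 were not shared.

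From group 10 on the samples differed more. The summed CPM of Hoxa10, Hoxc10 and Hoxd10, the genes of the lumbar cord, was 0.924, 30.7, 49.0, 28.0 and 1.12 in replicates 1 to 5. Replicates 2, 3 and 4 did not overlap with replicates 1 and 5, and the same division held for each of the 3 genes. Hoxa10 was counted at 0.859, 18.2, 28.6, 16.5 and 0.687 CPM, and Hoxd10 at 0.0322, 6.09, 10.4, 5.49 and 0 CPM, which is 3 counts in replicate 1 and none in replicate 5. Hoxd9 behaved like group 10, with 0.129, 11.2, 7.31, 7.74 and 0.158 CPM, whereas Hoxa9, of the same paralogue group, was counted at 35.8 to 83.9 CPM and differed far less between the samples. Groups 11 to 13 were low, at most 4.62 CPM for group 11 and 0.632 CPM for group 13, and were again higher in replicates 2, 3 and 4. In the cdKO samples Hoxa10 ranged from 7.57 to 39.5 CPM, so that replicates 1 and 5 were the only ones of the 10 with less than 1 CPM.

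**Figure D4:**
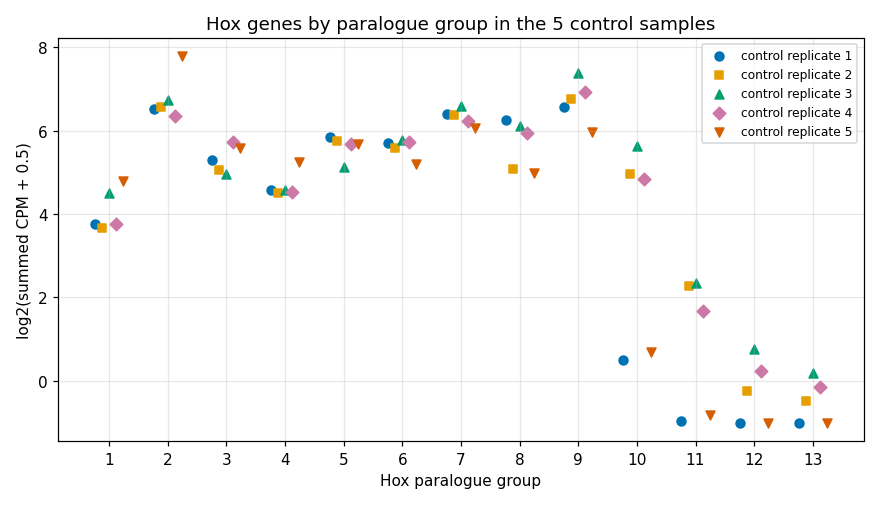
Summed CPM of the Hox genes of each paralogue group, as log2(summed CPM + 0.5), in the 5 control samples. Groups 1 to 9 are above 12 CPM in all samples, with group 2 highest in replicate 5, and from group 10 to group 13 replicates 1 and 5 lie below replicates 2, 3 and 4.

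Over the whole transcriptome, 1089 of the 13506 detected genes (8.06%) had an SD of log2 CPM of at least 1 and were called variable. The median SD of detected genes was 0.46. Replicate 5 was the sample farthest from the median for 684 of the 1089 variable genes (62.8%), in 606 of them by being low. Replicate 2 followed with 303 genes, 291 of them low, and replicates 1, 3 and 4 with 56, 10 and 36. Without replicate 5 the number of variable genes was 450 and without replicate 3 it was 1673, so that replicate 5 made for much of the count.

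**Figure D5:**
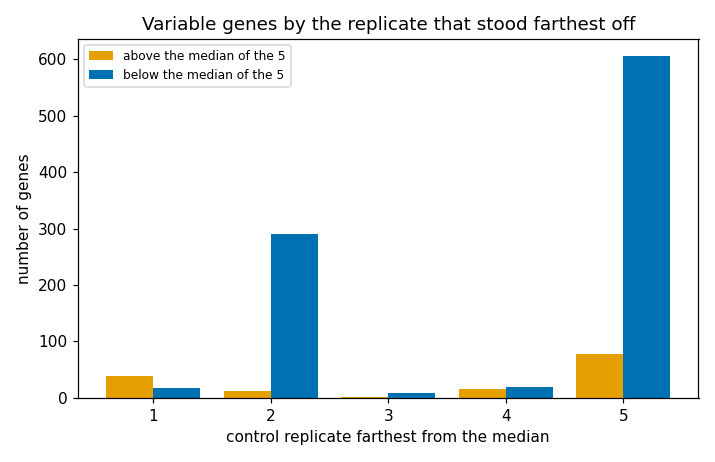
Number of variable genes (SD of log2 CPM of at least 1) for which each control replicate was the one farthest from the median of the 5, separated by direction. Replicate 5 accounts for 606 genes below and 78 above the median, replicate 2 for 291 below and 12 above.

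The 20 genes with the largest SD were of a few kinds, and 14 of them stayed among the first 20 without replicate 5. Those of the Y chromosome came first: Ddx3y, an RNA helicase, was counted at 45.3, 0, 0, 54.8 and 0.0716 CPM, and Eif2s3y, Uty and Kdm5d followed the same division. Xist, the RNA that coats the inactive X chromosome, was counted at 0, 3.82, 14.4, 0 and 40.0 CPM, the reverse of the Y genes. Its antisense partner Tsix had 0, 1.67, 5.48, 0 and 17.6 CPM, but 54.4% of the counts of Xist lay on bases shared with another gene and, without strand, they cannot be told apart. Replicates 1 and 4 thus held Y-linked RNA and replicates 2, 3 and 5 held Xist, a division unlike that of the Hox genes.

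Aldh1a2, Ecel1 and Sema4c were another kind, with a low value in replicate 5 alone, and without it their SDs were between 0.57 and 0.66. Ecel1, a membrane peptidase of MNs, was counted at 470, 466, 184, 262 and 13.8 CPM, and Sema4c, a semaphorin, at 29.6, 47.2, 25.4, 59.6 and 1.10 CPM. Their lowest values in the cdKO samples were 110 and 4.31 CPM. Hoxa10, Hoxd9 and Hoxd10 were a further kind, joined in their division by Gm42047, a lncRNA gene of chromosome 8 with 0.0322, 3.73, 16.0, 10.9 and 0.0143 CPM, and by Cap1, an actin-binding protein, with 5.42, 94.6, 76.9, 75.1 and 5.93 CPM.

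The remaining genes followed none of the divisions above. Rbm45, an RNA-binding protein, was counted at 0.601 CPM in replicate 1 and at 36.9 to 47.3 CPM in the other 4, and AA465934, a lncRNA gene, at 72.2 CPM in replicate 2 and at most 1.85 CPM elsewhere. Fn3krp, a kinase of glycated proteins, stood at 0.290, 0.419, 14.3, 0.159 and 6.57 CPM. Hmga1b, Tpm3-rs7 and the pseudogene Gm13394 resemble other genes in sequence, and their counts are uncertain because reads may be divided between copies. Hmga1b was counted at 63.5, 130, 59.6, 2.70 and 3.52 CPM, Tpm3-rs7 at 45.7, 55, 55.9, 3.45 and 3.41 CPM, and Gm13394 at 0.663 CPM in replicate 4 against 42.4 to 95.4 CPM. The low samples were replicates 4 and 5 for Hmga1b and Tpm3-rs7.

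The spread of the same genes was then examined in the 5 cdKO samples, which had no part in their choice. Of the 100 genes with the largest SD among controls, 48 were among the 1351 detected genes with the largest SD within the cdKO samples, where 10% of all detected genes stood by definition. Rbm45 ranged from 0.593 to 91.6 CPM, AA465934 from 0.641 to 581 CPM and Fn3krp from 0.136 to 14.5 CPM in cdKO samples. The Hox genes differed from these, Hoxa10, Hoxd9 and Hoxd10 having an SD between 0.83 and 0.97 there. Across the 13506 genes the SDs of both groups correlated with a Spearman's rho of 0.295, a description over genes that share the same libraries. The cdKO replicate 5 had counts in only 198569 exon parts, and without it the count was 68 of 100.

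The genes with the smallest SD, among those with a mean of at least 10 CPM, were Akap8l, Map3k12, Rab3ip, Dnajc14, Pctp, Fbxl20, Rabif, Rufy1, Pogk and Rac1. Akap8l, a nuclear scaffold protein, was counted at 97.3, 91.8, 92.0, 93.4 and 94.8 CPM, an SD of 0.03 on the log2 scale. Rac1, a small GTPase of the actin cytoskeleton, ranged from 267 to 300 CPM and had the highest level of the 10, 45.3 ± 1.97 CPM per kilobase, with 41.4% of its counts on shared bases. These genes are the lower end of an ordered list and were chosen by the values given.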

How the data were processed

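Total RNA of YFP-positive cells sorted from e10.5 spinal cord was sequenced in 5 control and 5 cdKO samples. The authors deposited raw counts of reads per exon part, not normalized. The submitters' processing notes name bcl2fastq 2.17, Trimmomatic 0.36, STAR 2.5.2b, Subread 1.5.2, DESeq2 and GRCm38. A read counts on every exon part it overlaps, and strand was not used.

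Exon parts were summed to 48850 genes with GENCODE M21, in which 49384 of 49644 gene identifiers were found. Overlapping genes that the deposit joins into a unit had their common parts given to the only protein-coding gene where there was 1, and 1964 parts (0.325% of control counts) were left out. Genes that overlap but are not joined, such as those on opposite strands, each kept their parts, so both carry the same reads. The shared percentage marks such genes. Counts were scaled by TMM (edgeR 4.0.16 in R 4.3.3) over the controls alone. Level is CPM divided by the sum of part lengths plus 150 bases per part. Logarithms used a pseudocount of 0.5 CPM. The computation of the spread was checked on simulated counts. The only hypothesis test was the exact two-sided sign-flip permutation test of 8 gene pairs, adjusted by the Benjamini-Hochberg method.

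Genes were named by rank (20 protein-coding, 10 lncRNA, 25 factors, 20 most and 10 least variable), as members of 22 lists, or as Hox genes. Some of these genes, and 1 pair, are not reported here. The members and lists were chosen with earlier results of these data known. Promoters are RefSeq's, matched by symbol for all 4 genes shown. Alternatives were DESeq2 size factors, library size, unshared parts, other lengths, filters and pseudocounts, and each sample left out.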

Additional observations from a re-analysis of the deposited data

Results flagged for a closer look

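Of 86 sets of 5 control values examined (library measures, list sums and the genes with per-sample values above), 16 held a sample set apart from the other 4, its gap to the nearest being over 0.71 of the whole range on the log2 scale for genes. Chance flags about 1 in 20 such sets, and the genes had been chosen for their values in part.

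Replicate 5 was the sample apart in 12 of them. It was high for Nkx2-9 (81.9 against 8.44 to 15.5), which carried the summed CPM of V3 lineage genes (99.3 against 34.4 to 44.1) although 3 of the 5 genes of that list were lowest there and its mean log2 level was 0.31 against 0.78 to 1.31, and for Foxa2 (45.0 against 8.74 to 12.1), Hoxb2 (105 against 45.3 to 49.3) and Gas5 (1305 against 352 to 414 CPM over all bases). It was low for Slc18a3 (20.3 against 82.1 to 139), Isl2 (56.1 against 116 to 142), Lhx1 (0.601 against 8.33 to 12.02), Aldh1a2 (0.143 against 31.4 to 90.4), Ecel1 (13.8 against 184 to 470), Sema4c (1.10 against 25.4 to 59.6) and Spon1 (43.3 against 217 to 366 CPM). The part of the lower number of exon parts with counts in this sample was not tested.

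Replicate 2 stood apart in 3 sets. Its 10 genes with the most counts took 7.0% of the total against 4.88% to 5.35%, and Elavl4 was at 184 against 470 to 604 CPM. AA465934 was at 72.2 CPM against 0.620 to 1.85 CPM. Replicate 1 stood apart for Rbm45, at 0.601 CPM in replicate 1 against 36.9 to 47.3 CPM.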

How the results depend on the processing

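No paired analysis was possible because no groups were compared, the only test being between genes within the control samples. The number of detected genes, 13506, was 10217 with a minimum of 5 CPM, 15623 with at least 10 counts in every sample, 12401 on unshared parts and between 13442 and 13583 with a sample left out. The number of variable genes, 1089, was 535 with a pseudocount of 2 and ranged from 450 to 1673 with a sample left out. The progenitor minus neuron level, -0.30, was 0.33 on the longest exon part of each gene and between -0.70 and -0.01 with a sample left out. Isl1 minus Isl2 turned from 0.51 to -4.96 on the longest parts and was between 0.13 and 0.77 with a sample left out. Nkx6-1 minus Nkx6-2 turned from 0.03 to -0.34 with lengths without added bases and was between -0.34 and 0.27 with a sample left out. The cause of these changes was not tested. The other 5 pairs described kept their direction under the alternatives run for them. For Olig2 and Olig1 unshared parts gave no value, since Olig1 has none. Of the 20 leading protein-coding genes 13 stayed on the longest parts, and of the 10 lncRNA genes 2 stayed on unshared parts. The count of 48 genes variable in cdKO samples as well was between 37 and 68 with a cdKO sample left out.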

Other observations

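Immediate early genes, which dissociation and sorting can induce, were present in all controls, with 9 of 10 detected and a summed CPM of 499 to 740. Fos was counted at 25.1, 18.8, 31.0, 27.2 and 53.0 CPM, highest in replicate 5, and Ier2 was the highest of the list by level, 82.8 ± 14.8 CPM per kilobase. The part of this response in other values was not tested.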
